A study of Mus musculus with 10 samples.

Results

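The 3 genes described here, *Atp1b1*, *Atp1b2* and *Atp1b3*, encode the beta subunits of the sodium-potassium pump (Na,K-ATPase). They were chosen by symbol, with earlier results of these data known, from the 34590 genes listed in each library of a bulk RNA-seq data set of the mouse cochlea. All 3 were found in every library and passed the filter on low counts. The Na,K-ATPase is a P-type ATPase of the plasma membrane that exports sodium and imports potassium at the expense of ATP. Its larger subunit carries the catalytic and ion-binding sites, its glycosylated beta subunit is needed for folding and delivery to the membrane and affects the affinity for potassium, and small FXYD proteins modulate its kinetics. In the cochlea the pump is best known from the stria vascularis, the spiral ligament and the nerve terminals under the hair cells, and the gradients it builds drive sodium-coupled transporters in many cells.

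The libraries were made from handpicked fluorescent cells of 5 cell types, with 2 biological replicates (libraries) of each, to compare hair cells converted from supporting cells by *Atoh1* with their cells of origin and with native hair cells. SCs (P26) were Deiters' and pillar cells taken at P26 and P27 from mice with 2 alleles, Fgfr3iCreER+ and the reporter Rosa26-CAG-loxP-stop-loxP-tdTomato+. The cHCs (P33), or converted hair cells, came from mice that carried both of these and in addition Atoh1-HA+ and alpha9 AChR-EGFP+, and both groups received tamoxifen at P12 and P13. OHCs (P7) and OHCs (P22) were outer hair cells labelled as coming from prestin-YFP YFP/+ knock-in mice, although the study's methods describe OHCs (P7) as tamoxifen-treated PrestinCreERT2+ cells with the tdTomato reporter. IHCs (P74) were inner hair cells from mice with a tdTomato reporter under Pval-Cre+. The library titles name this reporter line Ai9, whereas the study's methods name its tdTomato mice Ai14. Replicates are named as in the library titles, by number in SCs, cHCs and OHCs (P7), and as m21 and f22 in OHCs (P22) and m74 and m75 in IHCs, where the number was read as the age in days and does not wholly match the ages in the study's methods. Cre driven by *Fgfr3* marks SCs of both kinds together, cHCs were taken only where they had switched on the Chrna9 reporter, and the Pval-Cre reporter is weakly active in OHCs as well. SCs, cHCs and OHCs (P7) were numbered from 11 to 16 in 1 series of libraries and OHCs (P22) and IHCs were numbered in another, so that a difference between these series cannot be told apart from one between cell types.

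Between 15016129 and 40518766 reads per library fell on genes. The limit of detection used here was 3 counts, or 0.0740 to 0.200 CPM (counts scaled to a common library size) without TMM factors. The CPM levels of genes were scaled with the TMM factors of edgeR. On that scale, 3 counts in OHC (P22) replicate m21 were 0.2645 CPM. The TMM factor of OHC (P22) replicate m21 was 0.583 and the other 9 factors lay between 0.930 and 1.199. The summed level of 9 hair cell markers was 363 to 365 CPM in SCs, 4477 to 4585 CPM in cHCs and 8615 to 16808 CPM in native hair cells, and the 10 SC markers summed to 8853 and 13038 CPM in SCs. IHCs held 2144 and 1813 CPM of SC markers against 372 and 334 CPM in OHCs (P22). *Col1a2*, a fibrocyte collagen, reached 223 CPM in OHC (P7) replicate 15, and of the 8 strial markers *Kcne1*, *Esrrb*, *Dct* and *Bsnd* were at 0 or at most 2 counts in every library. *Kcnj10*, another of them and a potassium channel that SCs also express, was at 367 and 867 CPM in SCs, at up to 219.9 CPM in cHCs and 133 CPM in OHCs (P7), and at 104 and 185 CPM in IHCs. Among the remaining strial markers, *Kcnq1* was at 12.6 and 3.12 CPM in OHCs (P22) and 7.48 and 7.73 CPM in IHCs. *Tyr* and *Cldn11* reached at most 1.79 and 1.09 CPM. The 6 markers of myelinating glia summed to 11.2 to 227 CPM, the 6 of macrophages to at most 15.7 CPM and the 5 of red blood cells to at most 43.9 CPM. In SC replicate 12, with 227 CPM of glia markers, *Sox10* alone was at 190 CPM. The 8 neuron markers summed to 2.8 and 1.3 CPM in SCs, and to 333 and 595 CPM in cHCs. They summed to 682 and 580 CPM in OHCs (P7), 440 and 329 CPM in OHCs (P22), and 1624 and 2204 CPM in IHCs. In IHCs *Calb2* was at 1044 and 1370 CPM, *Nefh* at 80.7 and 72.9 CPM and *Tubb3* at 1.25 and 0.34 CPM. The part of neuron transcripts in the levels of the beta subunit genes was not tested.

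All 3 genes lie on the minus strand of the mm9 build and share no exonic base with another gene in GENCODE. *Atp1b1* (ENSMUSG00000026576) spans chr1:166367398-166388486 with 6 exons, *Atp1b2* (ENSMUSG00000041329) spans chr11:69413238-69419444 with 6 exons, and *Atp1b3* (ENSMUSG00000032412) spans chr9:96233099-96264766 with 7 exons in the longest transcript. Their exons cover 2422, 4085 and 1874 bp. The coding sequences, of 915, 873 and 837 bases, are diverged enough for reads of 100 bases to be told apart: *Atp1b1* and *Atp1b2* are identical at 62.1% of 837 aligned bases, *Atp1b1* and *Atp1b3* at 59.1%, and *Atp1b2* and *Atp1b3* at 59.9%. The longest exact run shared by transcripts of *Atp1b1* and *Atp1b2* is 19 bases, and those of the other pairs are 13 and 12 bases. The stretch of coding sequence around the 19-base run is printed because it is where *Atp1b1* and *Atp1b2* share their longest run, with the aligned stretch of *Atp1b3* beside it. Capitals mark the run in *Atp1b1* and *Atp1b2*. In *Atp1b3*, whose alignment has gaps in this stretch, they mark the bases identical to *Atp1b1*, which match 11 of the 19 bases of the run.

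Atp1b1, coding bases 615 to 693: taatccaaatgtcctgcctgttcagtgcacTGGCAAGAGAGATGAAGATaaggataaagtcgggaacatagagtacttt
Atp1b2, coding bases 573 to 651: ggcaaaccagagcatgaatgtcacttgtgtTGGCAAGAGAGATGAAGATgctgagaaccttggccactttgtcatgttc
Atp1b3, coding bases 562 to 617: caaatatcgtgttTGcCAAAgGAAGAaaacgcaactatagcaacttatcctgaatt

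*Atp1b1*, the beta subunit found in most tissues, was high in SCs, cHCs, OHCs (P7) and IHCs and low in OHCs (P22). Its level was 1578 and 799.7 CPM in SC replicates 12 and 11, 643 and 325 CPM in cHC replicates 13 and 16, and 557 and 499 CPM in OHC (P7) replicates 15 and 14. It was 42.2 and 75.2 CPM in OHC (P22) replicates m21 and f22, and 687 and 737 CPM in IHC replicates m74 and m75. Both OHC (P22) libraries lay below every other library, SCs lay above every other cell type, and the remaining groups overlapped or adjoined each other. The group means were 1189 ± 550 CPM in SCs, 712 ± 34.9 CPM in IHCs, 528 ± 41.2 CPM in OHCs (P7), 484 ± 225 CPM in cHCs and 58.7 ± 23.3 CPM in OHCs (P22) (SD, n = 2 each). In that order the only neighbours with an edgeR adjusted p under 0.05 were cHCs and OHCs (P22). The libraries of SCs and IHCs, and those of IHCs and OHCs (P7), did not overlap either, as was the case for 47.1% and 46.6% of all genes. In such bulk samples, fewer cells of a type and less RNA per cell cannot be told apart.

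In the edgeR fit *Atp1b1* was the member whose level differed among the 5 cell types (edgeR quasi-likelihood F-test over 4 coefficients, adjusted p = 0.00894, Benjamini-Hochberg over 16891 genes). This call was lost with limma-voom (adjusted p = 0.0570) and, in edgeR, without OHC (P22) replicate m21 (adjusted p = 0.0514). For comparison, 7.81% of all genes tested passed the same test, and 1 of the 3 beta subunit genes did. Its 10 pairwise comparisons gave 4 with an adjusted p under 0.05, all of them with OHCs (P22), and 6 with an unadjusted p under 0.05. *Atp1b1* was 20.2-fold lower in OHCs (P22) than in SCs (log2 fold change −4.34, SE 0.57, edgeR adjusted p = 0.00122), a comparison in which 8.02% of all genes passed. It was 8.24-fold lower in OHCs (P22) than in cHCs (log2 fold change −3.04, SE 0.54, edgeR adjusted p = 0.0134), where 3.18% of genes passed.

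The level also differed between the 2 ages of OHCs and between the 2 mature hair cell types. *Atp1b1* was 8.99-fold lower in OHCs (P22) than in OHCs (P7) (log2 fold change −3.17, SE 0.54, edgeR adjusted p = 0.0412), where 0.551% of all genes passed. It was 12.1-fold higher in IHCs than in OHCs (P22) (log2 fold change 3.60, SE 0.55, edgeR adjusted p = 0.0128), where 1.46% of genes passed. This last comparison lies within 1 series of libraries. Within the other series none of the 3 comparisons of *Atp1b1* passed.

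In the comparison on which the conversion rests, cHCs held 2.46-fold less *Atp1b1* than SCs, and the change did not pass (log2 fold change −1.30, SE 0.51, edgeR adjusted p = 0.279, unadjusted p = 0.0269). The libraries did not overlap, as was the case for 45.8% of all genes in this comparison, and 1.84% of all genes passed. OHCs (P7) differed from cHCs by a log2 fold change of 0.13 (edgeR adjusted p = 0.977; 0.343% of genes passed), and IHCs differed from cHCs by 0.56 (adjusted p = 0.700; 0.924% of genes passed). Against SCs, the log2 fold changes were −1.17 in OHCs (P7) (edgeR adjusted p = 0.245; 3.41% of genes passed) and −0.74 in IHCs (adjusted p = 0.462; 2.65% of genes passed). IHCs exceeded OHCs (P7) by a log2 fold change of 0.43 (edgeR adjusted p = 0.777; 0.379% of genes passed).

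The difference between OHCs (P22) and SCs passed in 17 alternative fits, with adjusted p values between 2.89e-11 and 0.0186, and did not pass with the files as attached to the records (edgeR adjusted p = 0.103). The other 3 were lost in more of them: without OHC (P22) replicate m21, in which *Atp1b1* was lowest, their adjusted p values were 0.103 against cHCs, 0.254 against OHCs (P7) and 0.118 against IHCs, and in a fit by limma-voom, as used in the study, they were 0.119, 0.178 and 0.0865.

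**Figure D1:**
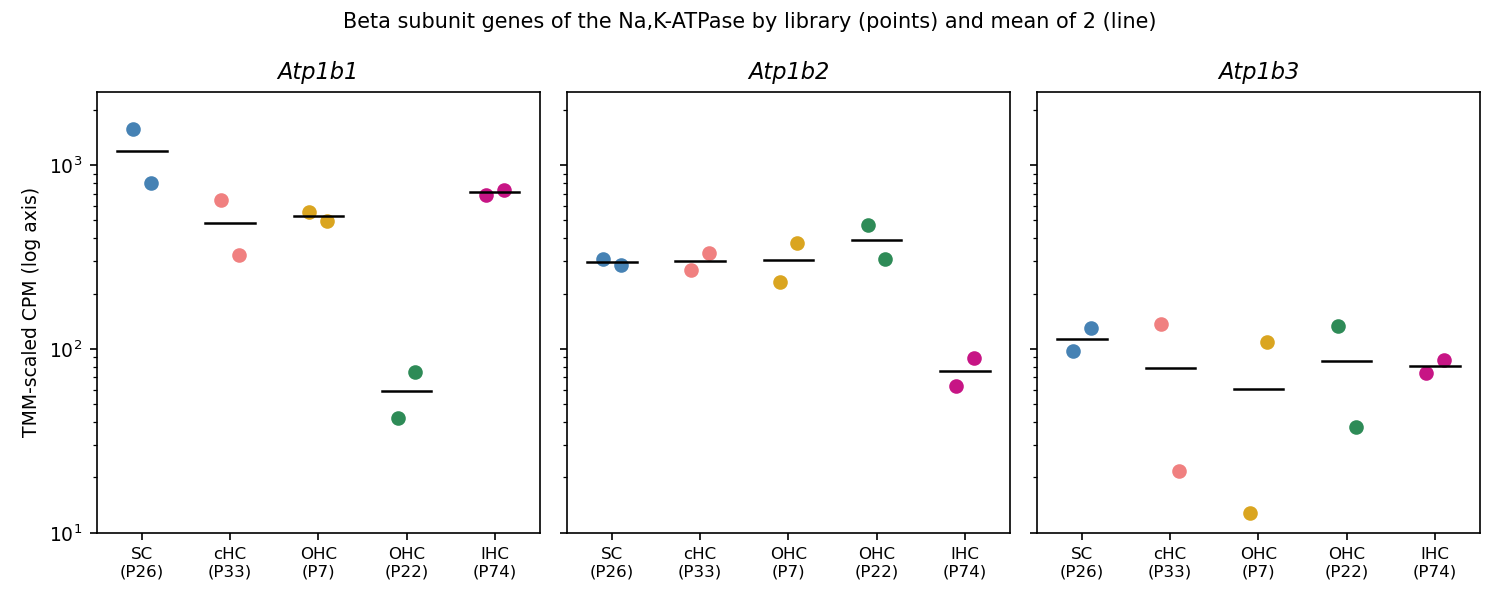
Level of the 3 beta subunit genes in each library (points, CPM scaled by TMM factors, log axis) and mean of the 2 libraries of each cell type (lines). *Atp1b1* is lowest in OHCs (P22) at 42.2 and 75.2 CPM, *Atp1b2* is lowest in IHCs at 62.5 and 89.5 CPM, and the replicates of *Atp1b3* lie far apart in cHCs, OHCs (P7) and OHCs (P22).

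*Atp1b2*, the beta subunit long known from neurons and glia as AMOG, the adhesion molecule on glia, stood at a similar level in 4 cell types and was low in IHCs. It was at 308 and 285 CPM in SC replicates 12 and 11, 269 and 332 CPM in cHC replicates 13 and 16, and 232 and 377 CPM in OHC (P7) replicates 15 and 14. In OHC (P22) replicates m21 and f22 it was at 471 and 309.5 CPM, and in IHC replicates m74 and m75 at 62.5 and 89.5 CPM. Both IHC libraries were below all 8 others, whose ranges overlapped or adjoined. The means ran from 390 ± 114 CPM in OHCs (P22) through 305 ± 103 CPM in OHCs (P7), 301 ± 44.5 CPM in cHCs and 297 ± 15.8 CPM in SCs to 76.0 ± 19.0 CPM in IHCs (SD, n = 2 each), and no neighbours in that order differed with an adjusted p under 0.05.

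The joint test of *Atp1b2* did not pass in edgeR (adjusted p = 0.0774), but passed with DESeq2 (adjusted p = 0.0172), with limma-voom (adjusted p = 0.0274) and, in edgeR, among genes with at least 10 counts in every library (adjusted p = 0.0450). Of all 16891 genes, 4396 passed this test with DESeq2 and 2273 with limma-voom, against 1320 in edgeR. Among genes with at least 10 counts in every library, 827 of 7279 passed. Its 10 pairwise comparisons gave 1 that passed, and the 4 with IHCs had an unadjusted p under 0.05. *Atp1b2* was 5.13-fold lower in IHCs than in OHCs (P22) (log2 fold change −2.36, SE 0.50, edgeR adjusted p = 0.0446). The log2 fold changes of IHCs against SCs, cHCs and OHCs (P7) were −1.96, −1.98 and −2.00, with SEs of 0.49 and edgeR adjusted p values of 0.0662, 0.113 and 0.140. DESeq2 and limma-voom passed all 4 comparisons. In these comparisons DESeq2 called 1330 to 2302 of all 16891 genes and limma-voom 299 to 1052, against 64 to 447 in edgeR. The call against OHCs (P22) was lost in 9 of the 10 fits of all cell types that left out a library. It was also lost in the fit of only these 2 cell types (edgeR adjusted p = 0.139) and in a fit with a block of title form (edgeR adjusted p = 0.0615). Across 17 alternatives its log2 fold change ran from −2.64 to −1.94.

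Between SCs and cHCs the level of *Atp1b2* differed by a log2 fold change of 0.02 (SE 0.48, edgeR adjusted p = 1), and OHCs (P22) exceeded cHCs by 0.38 (SE 0.48, edgeR adjusted p = 0.710). The difference of OHCs (P22) was 0.40 from SCs (edgeR adjusted p = 0.629) and 0.36 from OHCs (P7) (adjusted p = 0.763). These differences were smaller than their SE and were not detectable with 2 libraries per cell type.

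*Atp1b3*, a beta subunit of broad tissue distribution, varied more between replicates than between cell types. Its level was 97.0 and 129 CPM in SC replicates 12 and 11, 136 and 21.6 CPM in cHC replicates 13 and 16, and 12.8 and 109 CPM in OHC (P7) replicates 15 and 14. It was 133 and 37.6 CPM in OHC (P22) replicates m21 and f22, and 74.4 and 87.4 CPM in IHC replicates m74 and m75. The replicates of cHCs, OHCs (P7) and OHCs (P22) stood several-fold apart and overlapped all other cell types, whereas those of SCs and IHCs were close to each other. The means were 113 ± 22.8 CPM in SCs, 85.5 ± 67.8 CPM in OHCs (P22), 80.9 ± 9.18 CPM in IHCs, 78.8 ± 80.9 CPM in cHCs and 60.8 ± 67.9 CPM in OHCs (P7) (SD, n = 2 each), and no neighbours in this order differed beyond their spread.

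Neither the joint test of *Atp1b3* (edgeR adjusted p = 0.967) nor any of its 10 pairwise comparisons passed, 0 had an unadjusted p under 0.05, and 0 passed with DESeq2 or limma-voom. The log2 fold change was −0.52 between cHCs and SCs (SE 1.05, edgeR adjusted p = 0.877) and 0.12 between OHCs (P22) and cHCs (SE 1.05, adjusted p = 0.971). The SE exceeded that of *Atp1b2*, and the dispersion estimated by edgeR was 0.537 for *Atp1b3* against 0.203 for *Atp1b1* and 0.184 for *Atp1b2*. The difference of *Atp1b1* between cHCs and SCs did not pass either, at a smaller SE of 0.51. A difference of that size was therefore not detectable for *Atp1b3*.

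**Figure D2:**
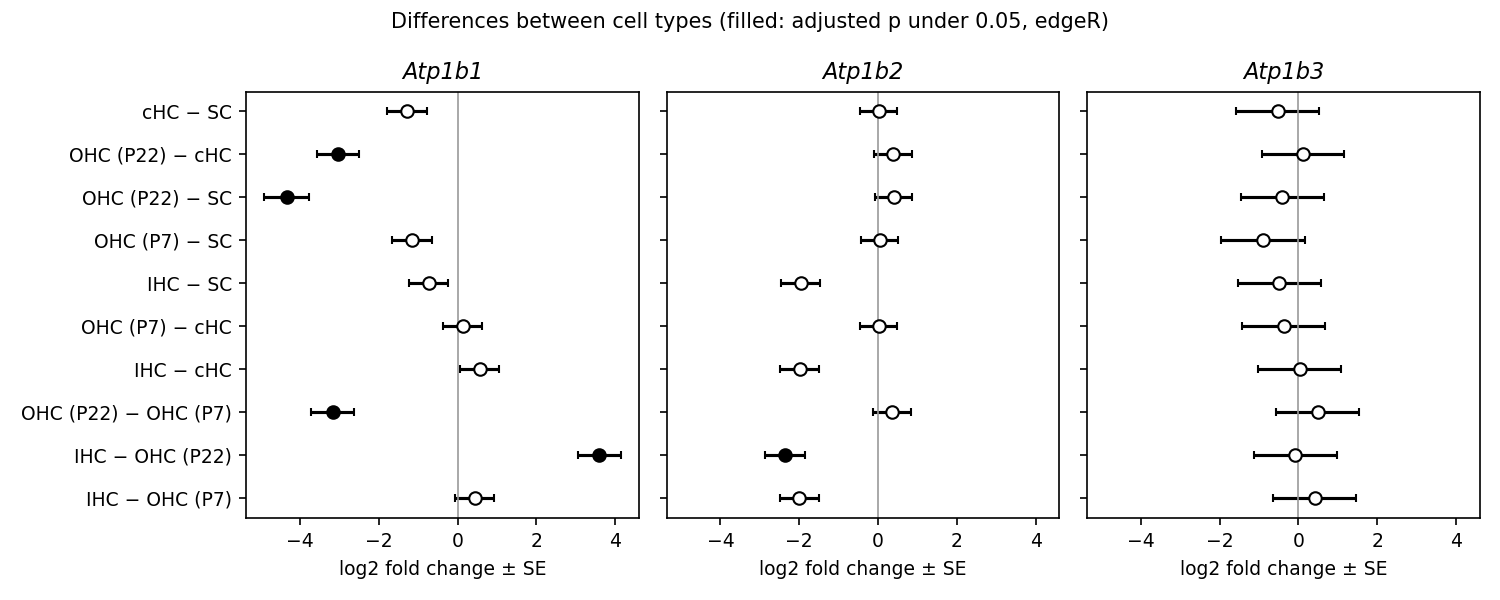
Log2 fold changes (horizontal axis, ± SE from edgeR) of the 3 genes in the 10 comparisons between cell types, with filled points for an adjusted p under 0.05. *Atp1b1* passes in the 4 comparisons that involve OHCs (P22), and *Atp1b2* passes between IHCs and OHCs (P22) and has log2 fold changes of −1.96 to −2.36 in all comparisons with IHCs.

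To compare the genes with each other, the levels were divided by the length of the exons (FPKM). On this scale *Atp1b1* was the leading beta transcript in all 8 libraries other than those of OHCs (P22). Its mean was 491 ± 227 FPKM in SCs, 200 ± 92.9 FPKM in cHCs, 218 ± 17.0 FPKM in OHCs (P7), 24.2 ± 9.62 FPKM in OHCs (P22) and 294 ± 14.4 FPKM in IHCs. *Atp1b2* had 72.6 ± 3.86, 73.6 ± 10.9, 74.6 ± 25.2, 95.5 ± 27.9 and 18.6 ± 4.66 FPKM in the same order of cell types, and *Atp1b3* had 60.4 ± 12.2, 42.0 ± 43.2, 32.4 ± 36.2, 45.6 ± 36.2 and 43.2 ± 4.90 FPKM (SD, n = 2 each). In OHC (P22) replicates m21 and f22, *Atp1b2* exceeded *Atp1b1* 6.61-fold and 2.44-fold in FPKM. The opposite order held elsewhere, with an excess of *Atp1b1* over *Atp1b2* that was lowest at 1.65-fold in cHC replicate 16 and highest at 18.5-fold and 13.9-fold in IHCs.

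Expressed as a share of the summed FPKM of the 3 genes, *Atp1b1* made up 83.7% and 70.4% of beta transcripts in SC replicates 12 and 11, 65.7% and 59.1% in cHC replicates 13 and 16, and 78.4% and 57.8% in OHC (P7) replicates 15 and 14. It made up 8.55% and 24.5% in OHC (P22) replicates m21 and f22, and 83.8% and 81.6% in IHC replicates m74 and m75. The share was below 25% in both OHC (P22) libraries and above 57% in the other 8. Of the variation of this share among the 10 libraries, 92.5% lay between cell types (exact permutation test over the 945 partitions into 5 pairs, 2-sided, p = 0.0286, adjusted p = 0.0466 over 4 values). The smallest p this design allows is 0.00106.

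The share of *Atp1b2* was 9.68% and 14.9% in SCs, 16.3% and 35.8% in cHCs, 19.3% and 25.9% in OHCs (P7), 56.5% and 59.7% in OHCs (P22), and 4.52% and 5.88% in IHCs, with replicates in the order given above. *Atp1b2* thus had its highest shares in OHCs (P22) and its lowest in IHCs, without overlap with other cell types at either end. Cell type accounted for 93.5% of the variation of this share (exact permutation test, p = 0.0180, adjusted p = 0.0466). The share of *Atp1b3* ran from 2.32% in OHC (P7) replicate 15 to 34.9% in OHC (P22) replicate m21, and 46.4% of its variation lay between cell types (exact permutation test, p = 0.519, adjusted p = 0.519). When the lengths were taken from the longest protein-coding transcript in place of all exons, the adjusted p values of the shares of *Atp1b1* and *Atp1b2* rose to 0.0508.

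**Figure D3:**
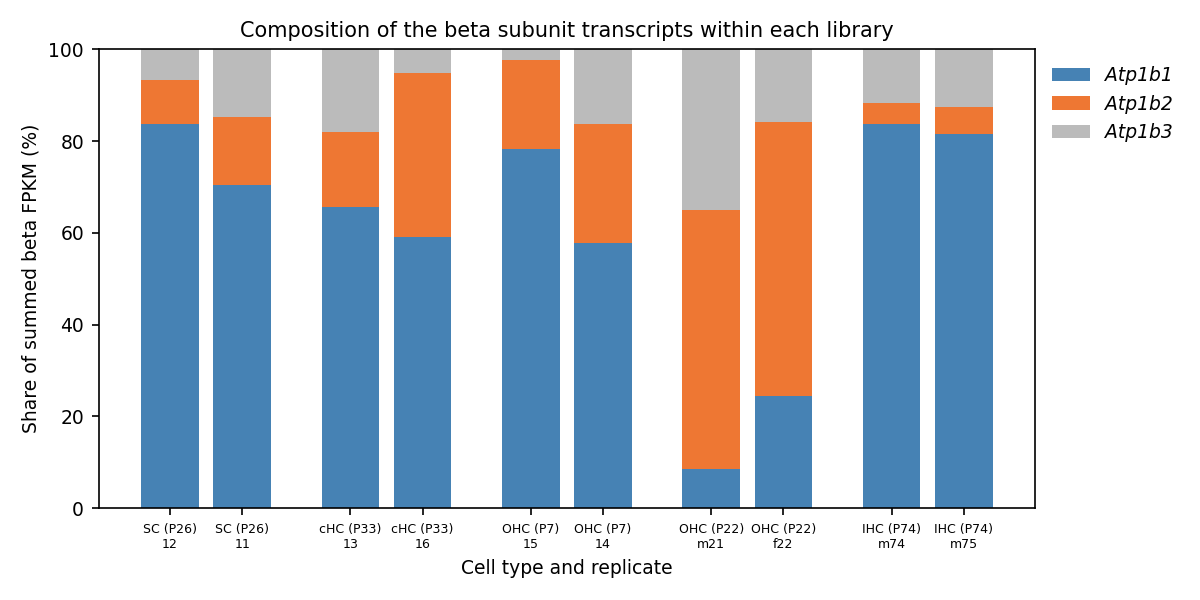
Share of the 3 beta subunit genes in their summed FPKM (vertical axis, %) in each of the 10 libraries, labelled by cell type and replicate. *Atp1b1* fills between 57.8% and 83.8% of the bar in SCs, cHCs, OHCs (P7) and IHCs and 8.55% and 24.5% in OHCs (P22), where *Atp1b2* fills 56.5% and 59.7%.

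Of the 7 FXYD genes, the small regulators of the pump, 5 were tested and 1, *Fxyd6*, passed the joint test (edgeR adjusted p = 0.0112), against 7.81% of all genes. *Fxyd6* was at 126 and 114 CPM in SCs, 42.3 and 7.80 CPM in cHCs, 1.48 and 0.25 CPM in OHCs (P7), 14.2 and 4.09 CPM in OHCs (P22), and 378 and 145 CPM in IHCs. IHCs were highest and OHCs (P7) lowest, and these did not overlap another cell type. *Fxyd6* was lower in OHCs (P7) than in SCs (log2 fold change −7.17, SE 1.32, edgeR adjusted p = 0.0135) and higher in IHCs than in OHCs (P7) (log2 fold change 8.30, SE 1.39, adjusted p = 0.0314), and no other pair passed. In these 2 comparisons 3.41% and 0.379% of all genes passed. Of the 4 Nkain genes, whose products bind the beta1 subunit, *Nkain1* and *Nkain2* were tested. *Nkain1* passed the joint test (edgeR adjusted p = 0.0492) but 0 of 10 pairwise comparisons (6 at an unadjusted p under 0.05), with 12.4 and 24.4 CPM in cHCs, 1.21 and 20.7 CPM in OHCs (P7), and at most 0.18 CPM in SCs, OHCs (P22) and IHCs.

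Of the proton pump and beta-like genes, *Atp1b4* and *Atp12a* had no count in any library. That allows at most the 3-count limit of 0.0740 to 0.200 CPM without TMM factors. With these factors, 3 counts in OHC (P22) replicate m21 were 0.2645 CPM. *Atp4a*, the catalytic subunit of the gastric proton pump, was the only one tested of the 4 and did not pass (edgeR adjusted p = 0.100). Among 10 transporters and exchangers that draw on the sodium gradient or run against it, 9 were tested and 3 passed the joint test, which 7.81% of all genes passed. *Slc8a2*, a sodium-calcium exchanger, was at 0.18 and 0.13 CPM in SCs, 19.7 and 78.0 CPM in cHCs, 204 and 74.9 CPM in OHCs (P7), 200.2 and 266 CPM in OHCs (P22), and 135 and 146 CPM in IHCs. All 8 hair cell and cHC libraries thus lay above both SC libraries, which were close to the limit of detection. The log2 fold changes of *Slc8a2* from SCs were 8.28 in cHCs (edgeR adjusted p = 0.00141), 9.79 in OHCs (P7) (adjusted p = 0.000472), 10.53 in OHCs (P22) (adjusted p = 0.000257) and 9.80 in IHCs (adjusted p = 0.000575).

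*Slc38a1*, a sodium-coupled glutamine transporter, was at 55.8 and 25.2 CPM in SCs, 111 and 337 CPM in cHCs, 291 and 199 CPM in OHCs (P7), 479 and 532 CPM in OHCs (P22), and 818 and 1161 CPM in IHCs. It was higher than in SCs by log2 fold changes of 2.60 in OHCs (P7) (edgeR adjusted p = 0.0464), 3.64 in OHCs (P22) (adjusted p = 0.00638) and 4.61 in IHCs (adjusted p = 0.00389). *Slc6a6*, a sodium-coupled taurine transporter, was at 187 and 1446 CPM in SCs, 66.6 and 74.3 CPM in cHCs, 38.9 and 43.4 CPM in OHCs (P7), 0.44 and 6.44 CPM in OHCs (P22), and 134 and 53.1 CPM in IHCs. Like *Atp1b1*, *Slc6a6* had its lowest levels in OHCs (P22) and its highest in SCs, and it was lower in OHCs (P22) than in SCs (log2 fold change −7.86, SE 1.40, edgeR adjusted p = 0.00631).

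**Figure D4:**
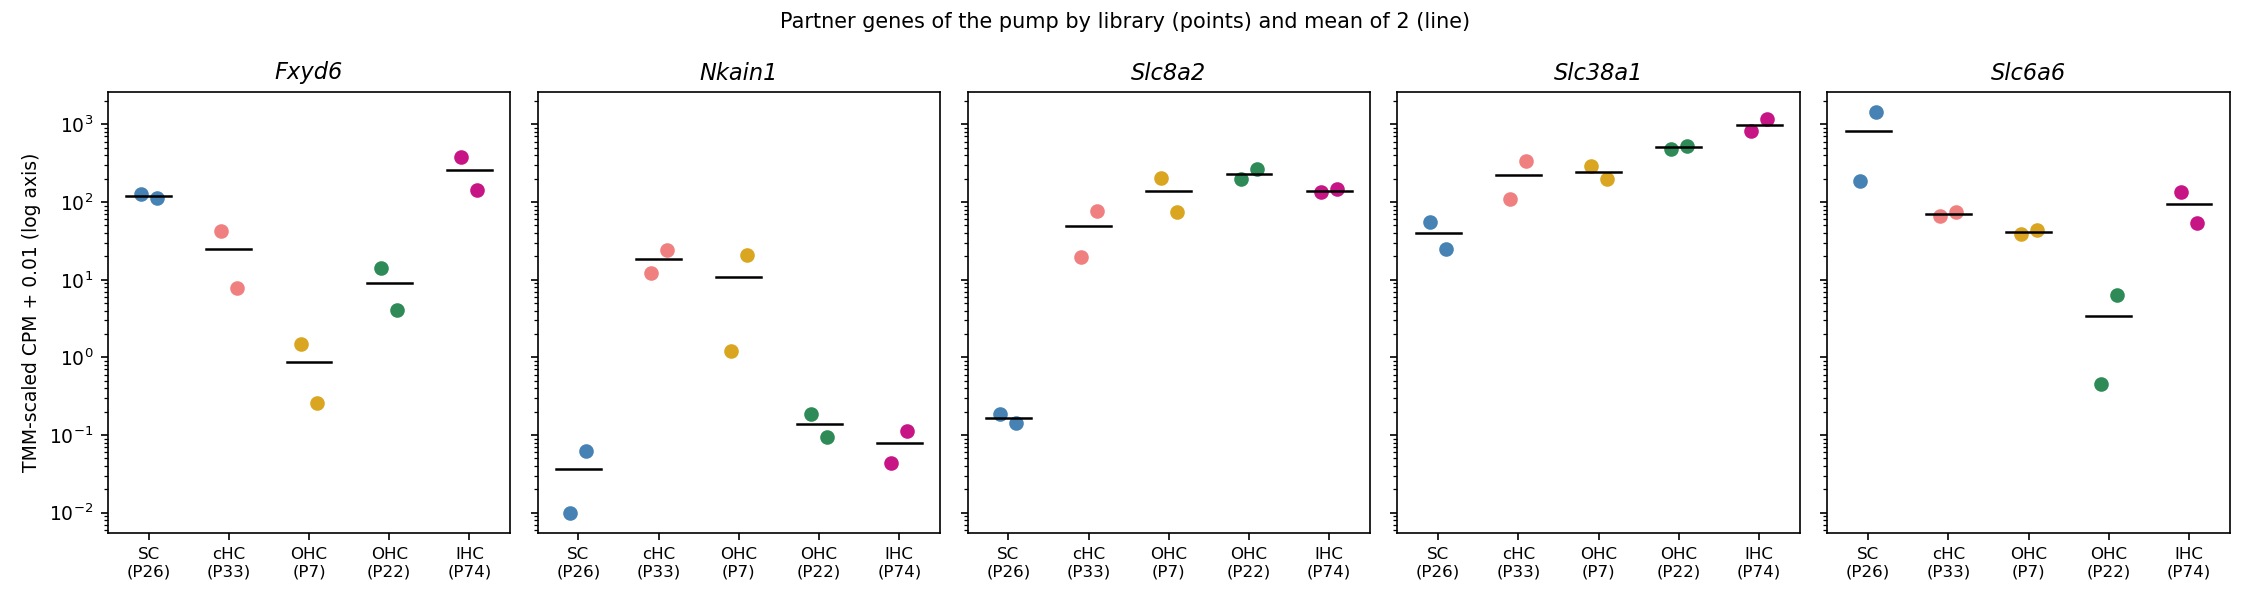
Level of the 5 partner genes that passed the joint test in each library (points, CPM scaled by TMM factors with 0.01 added, log axis) and mean of the 2 libraries of each cell type (lines). *Slc8a2* is at 0.18 and 0.13 CPM in SCs and at 19.7 CPM or more elsewhere, *Slc38a1* is highest in IHCs at 818 and 1161 CPM, and *Slc6a6* is lowest in OHCs (P22) at 0.44 and 6.44 CPM.

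Both *Atp1b1* and the summed level of the SC markers were highest in SCs and lowest in OHCs (P22). The summed level of the 10 SC markers, as a percentage of the SC mean, was 80.9% and 119% in SCs, 29.7% and 11.996% in cHCs, 8.40% and 10.6% in OHCs (P7), 3.40% and 3.05% in OHCs (P22), and 19.6% and 16.6% in IHCs. *Atp1b1*, on the same footing, was at 133% and 67.3% in SCs, 54.1% and 27.3% in cHCs, 46.9% and 42.0% in OHCs (P7), 3.55% and 6.32% in OHCs (P22), and 57.8% and 62.0% in IHCs. Within SCs, OHCs (P7), OHCs (P22) and IHCs, the replicate with the higher marker sum had the lower *Atp1b1*. The marker sum consisted largely of *S100a1*. Without that gene it was 62.6% and 46.1% in cHCs, 5.77% and 19.1% in OHCs (P7), 1.02% and 0.530% in OHCs (P22), and 47.6% and 38.4% in IHCs. *Atp1b1* thus lay below the sum of the other 9 markers in both cHC libraries. It lay above that sum in both libraries of each of the other hair cell types. In cHCs the sum included *Prox1* and *Fgfr3*, with means of 270 and 445 CPM against 34.2 and 239 CPM in SCs. The median of the 10 markers in cHC replicates 13 and 16 was 34.0% and 7.99% of the SC mean, below *Atp1b1*. The IHC libraries held *Gjb2*, the connexin 26 of SCs, at 611 and 468 CPM and *Sox9*, a transcription factor of SCs, at 96.0 and 64.5 CPM, while OHCs (P22) held at most 0.79 and 1.23 CPM of the same genes. In IHCs *Gjb2* lay above its SC mean of 259 CPM, and *Sox9* lay below its SC mean of 322 CPM. Other SC markers were low in IHC replicates m74 and m75, with *Fgfr3* at 17.3 and 0 CPM and *Prox1* at 2.32 and 7.87 CPM. Their SC means were 239 and 34.2 CPM. All 10 SC markers had at least 3 counts in IHC replicate m74 and 9 in replicate m75, against 7 in each OHC (P22) library, in which *Sox2* was at 0. The part of SC transcripts in the level of *Atp1b1* in IHCs was not tested. *Atp1b2* showed another order, at 21.1% and 30.2% of the SC mean in IHCs and 159% and 104% in OHCs (P22).

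**Figure D5:**
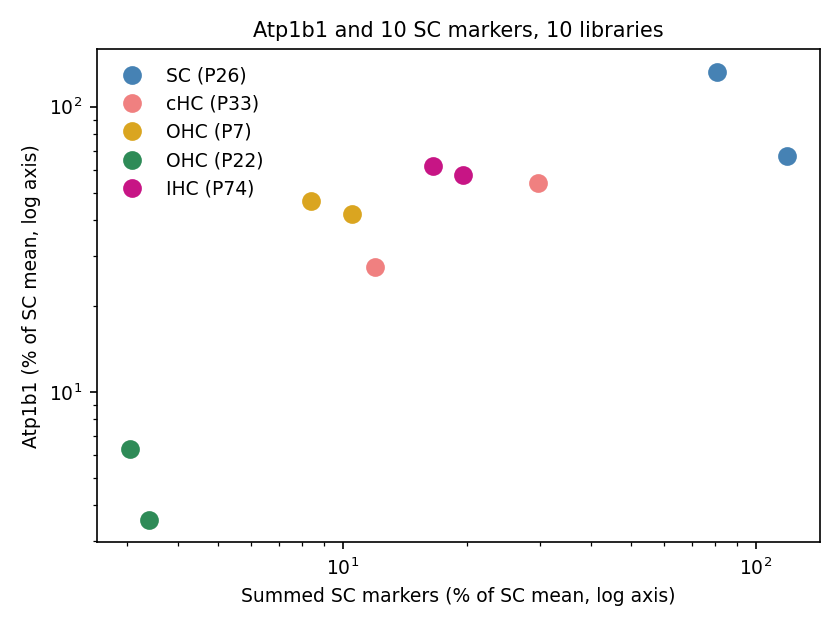
*Atp1b1* (vertical axis, % of the SC mean, log axis) against the summed level of 10 SC markers (horizontal axis, % of the SC mean, log axis) in the 10 libraries, coloured by cell type. Both measures are lowest in OHCs (P22), and IHCs and OHCs (P7) have *Atp1b1* at 42.0% to 62.0% with SC markers at 8.40% to 19.6%.

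Across the 10 libraries the 3 beta subunit genes did not share a profile. Pearson's r of log2 CPM was −0.42 between *Atp1b1* and *Atp1b2*, 0.09 between *Atp1b1* and *Atp1b3*, and 0.02 between *Atp1b2* and *Atp1b3*, over 10 libraries. These libraries were all amplified and differed in depth and in series, which r does not separate from cell type. Among the 9242 genes with a mean of at least 10 CPM, the profiles most like *Atp1b1* were those of *Oxct1*, *Txndc5*, *Sall2*, *Lamb2* and *Rassf9* (r = 0.97 each), in a description without a test. *Oxct1*, an enzyme of ketone body use, was at 71.0 and 22.9 CPM in SCs, 60.8 and 32.8 CPM in IHCs and 0.62 and 1.18 CPM in OHCs (P22). The profiles most like *Atp1b2* were those of *Rab2b* (r = 0.93), *Gabarapl1*, *Serinc3*, *Fam187b* and *Abat* (r = 0.90 to 0.92). *Rab2b*, a small GTPase, was at 0.44 and 2.30 CPM in IHCs and at 12.8 CPM or more elsewhere. The profiles most like *Atp1b3* were those of *Cpeb2* (r = 0.93), *Idua*, *Sirt2*, *Commd7* and *Itpr2* (r = 0.90 to 0.93). *Cpeb2*, a regulator of translation, was at 29.2 CPM in cHC replicate 16, 16.5 CPM in OHC (P7) replicate 15 and 33.9 CPM in OHC (P22) replicate f22, the libraries in which *Atp1b3* was also low, and above 40 CPM elsewhere.

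The 250 bases upstream of *Atp1b1* and *Atp1b2*, the genes with the lowest levels in OHCs (P22) and in IHCs respectively, are given 5′ to 3′ on the strand of the gene. Capitals mark matches to CANNTG, the E-box letters that ATOH1 and other basic helix-loop-helix factors recognize, searched on both strands. The pair of matches in *Atp1b2*, 147 and 141 bases upstream of the gene start, adjoin each other.

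Atp1b1, chr1:166388487-166388736, minus strand, mm9: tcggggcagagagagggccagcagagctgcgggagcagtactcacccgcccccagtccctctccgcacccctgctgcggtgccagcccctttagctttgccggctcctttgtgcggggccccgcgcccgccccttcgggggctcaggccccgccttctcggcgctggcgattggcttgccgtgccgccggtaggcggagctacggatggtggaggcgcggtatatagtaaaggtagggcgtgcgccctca
Atp1b2, chr11:69419445-69419694, minus strand, mm9: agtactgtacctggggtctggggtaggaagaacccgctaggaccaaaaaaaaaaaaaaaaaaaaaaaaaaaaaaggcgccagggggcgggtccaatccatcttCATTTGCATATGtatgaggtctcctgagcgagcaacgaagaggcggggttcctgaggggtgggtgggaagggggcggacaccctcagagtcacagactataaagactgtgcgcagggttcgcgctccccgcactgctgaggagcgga

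The windows differed in composition, with 70.4% G and C in *Atp1b1*, 54% in *Atp1b2* and 76.8% in *Atp1b3*. *Atp1b1* had 0 matches to CANNTG, *Atp1b2* had 2 and *Atp1b3* had 1, and 63.5% of the windows of 22380 protein-coding genes held at least 1. TATAAA matched 50 bases upstream of *Atp1b2* and not in the windows of the other 2 genes, and 12.3% of all windows held it. GGGCGG, the letters of the GC box, matched 2 times in *Atp1b1*, 2 times in *Atp1b2* and 6 times in *Atp1b3*, and was held by 39.6% of all windows. These matches are letters in the windows and were not tested against the expression levels.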

How the data were processed

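Handpicked fluorescent cells of 5 cochlear cell types were profiled in 10 bulk RNA-seq libraries. Amplification of the cDNA used a single primer under isothermal conditions. Paired reads of 100 bases, called with CASAVA 1.7, were adapter-trimmed with Cutadapt and aligned to mm9 by a STAR and BWA pipeline. HTSeq then gave the raw counts per gene symbol that the authors deposited, with no normalization. The rows of unassigned reads, 44.2% to 72.1% of reads, were left out.

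For 4 of the 10 records the attached file belonged to a different sample. Each library was identified as the file whose counts were a constant multiple of its CPM column in the supplementary table of the study, and each of these files also carried the title of its sample. The files as attached were kept as an alternative.

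Differences were tested with edgeR 4.0.16 in R 4.3.3 (TMM factors, filterByExpr, quasi-likelihood F-tests, 2-sided, 1 model of 10 libraries with cell type only). The filter kept 16891 of the 23415 genes with a count, the common dispersion was 1.12, and p values were adjusted by Benjamini-Hochberg over all genes kept, with a threshold of 0.05. The SE was the log2 fold change divided by the square root of F. FPKM were CPM per kilobase of the exons of GENCODE vM1 (mm9). Shares were tested by exact permutation in Python 3.11.15. The scripts were tested on simulated data. Alternatives were DESeq2 1.42.0, limma 3.58.1 with voom, RLE factors, other filters and lengths, a fit of 2 cell types, and leaving out each library.

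Named partner genes were the listed genes that passed the joint test or a pairwise comparison, together with the 5 most correlated genes of each member. Some partner genes, and 1 of the 4 values over which the permutation tests were adjusted, are not reported here. Members, lists and tests were chosen with earlier results of these data known. The 3-count limits cover counting error only, whereas SDs and SEs include the spread between libraries. The single-cell data of the study were not analysed here.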

Additional observations from a re-analysis of the deposited data

How the results depend on the processing

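The fits were repeated with other tests, factors, filters, lengths, file assignments and without each library, and the libraries at 2 per cell type limit what could be detected. The lower *Atp1b1* of OHCs (P22) against SCs passed in 17 alternatives and was lost only with the files as attached to the records. With DESeq2, *Atp1b2* passed 4 pairwise comparisons and its joint test (adjusted p = 0.0172). With limma-voom, *Atp1b1* passed 1 comparison (joint adjusted p = 0.0570) and *Atp1b2* passed 4 (joint adjusted p = 0.0274). *Atp1b2* passed 2 comparisons without a filter, 3 with at least 10 counts in every library (edgeR joint adjusted p = 0.0450) and 0 in fits of only 2 cell types. Of all 16891 genes, 4396 passed the joint test with DESeq2 and 2273 with limma-voom, against 1320 in the main fit. It was passed by 4067 of 23415 genes without a filter and by 827 of 7279 with at least 10 counts. Between OHCs (P22) and cHCs, the log2 fold change of *Atp1b3* was −0.013 without a filter and −0.18 with at least 10 counts. With RLE factors the call of *Atp1b1* between OHCs (P22) and OHCs (P7) was lost (edgeR adjusted p = 0.0518).

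With the files as attached to the records, *Atp1b1* and *Atp1b2* passed 0 comparisons each in edgeR, the joint adjusted p of *Atp1b1* was 0.359, and the log2 fold change of *Atp1b2* between cHCs and SCs was −0.16. With the longest protein-coding transcripts, a choice added after seeing the data, the share of *Atp1b1* in OHCs (P22) minus that in IHCs was −67.5 percentage points and that of *Atp1b2* was 59.0 (exact permutation test, adjusted p = 0.0508 each).

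Leaving out each library, *Atp1b1* passed 1 to 4 comparisons and *Atp1b2* 0 to 1, and the joint adjusted p of *Atp1b1* in edgeR ran from 0.00607 to 0.0514, the highest without OHC (P22) replicate m21. The log2 fold change between cHCs and SCs ran from −0.14 to 0.16 for *Atp1b2* and from −2.39 to 0.27 for *Atp1b3*, and that between OHCs (P22) and cHCs from −0.054 to 0.65 for *Atp1b2* and from −1.17 to 1.99 for *Atp1b3*. The calls of *Atp1b1* in OHCs (P22) were also lost, in edgeR, without cHC replicate 13 against cHCs (adjusted p = 0.0591), without OHC (P7) replicate 15 or 14 or IHC replicate m74 against OHCs (P7) (adjusted p = 0.0893, 0.119 and 0.0511), and without IHC replicate m75 against IHCs (adjusted p = 0.0526). The lone library of a cell type was assumed to vary like the others. The cause was not tested. No analysis paired by replicate number was possible because the cell types share no such number in the labels. The SC, cHC and OHC (P7) libraries carry 2 forms of title, 1 of each per cell type, the form of replicates 12, 13 and 15 having fewer reads. Their deviations did not go together (r = 0.03, 0.04 and −0.02 between cell types over 16891 genes). Within the forms, the log2 difference of *Atp1b1* between cHCs and SCs was −1.30 in both. With the form as a block, added after seeing the data, this difference still did not pass (edgeR adjusted p = 0.279), *Atp1b2* passed 0 comparisons, it differed between cHCs and SCs by a log2 fold change of −0.0016, and *Atp1b3* differed between OHCs (P22) and cHCs by −0.0016.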
